A study of Mus musculus with 48 samples.

Results

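The genes for 28 proteins of the small subunit of the cytosolic ribosome were followed here through messenger RNA, ribosome footprints and the ratio of footprints to RNA, in Ba/F3 clones with and without a defect in a ribosomal protein. The 28 genes were taken by symbol from a table of 55487 genes: Rpsa, Rps2, Rps3, Rps3a1, Rps4x, Rps6, Rps7, Rps9, Rps10, Rps12, Rps13, Rps14, Rps15, Rps15a, Rps16, Rps18, Rps19, Rps20, Rps21, Rps23, Rps24, Rps25, Rps26, Rps27, Rps27a, Rps28, Rps29 and Fau. All 28 passed the filter on low counts at each level, among the 12814 genes tested in RNA, 16217 in footprints and 16568 for the ratio. A further 7 genes of the same subunit or bound to it, such as Rack1, were kept as a separate list.

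Ba/F3 is a mouse pro-B cell line that depends on interleukin 3. CRISPR-Cas9 editing gave 7 genotypes that were set beside WT. Rpl5+/-, Rpl11+/- and Rpl22+/- had lost 1 copy of a large-subunit gene, and Rpl22-/- had lost both copies. Rpl10 R98S/R98S, Rps15 P131S/P131S and Rps15 H137Y/H137Y carried an amino acid exchange. For Rps15 P131S the labels of the RNA libraries name the mutation once, while the footprint labels name it on both alleles. Each genotype was represented by 3 clones and each clone by 1 poly(A)-selected RNA library and 1 footprint library, so 24 clones gave 48 libraries. Interleukin 3 (1 ng/ml) and serum (10%) were present in every culture, WT included. Cycloheximide (0.1 mg/ml) was given for 1 min before lysis, and each lysate was split between both assays. A clone descends from a single edited cell, so a difference between genotypes cannot be told apart from differences among the clones that happened to be picked.

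The small subunit binds the messenger RNA, reads its codons and selects the start site. Its proteins are grouped here by place: 12 sit on the head (Rps3, Rps10, Rps12, Rps15, Rps16, Rps18, Rps19, Rps20, Rps25, Rps27a, Rps28, Rps29), and the other 16 on the body and platform. Messenger RNAs of ribosomal proteins begin with a cytidine followed by a run of pyrimidines, the terminal oligopyrimidine (TOP) motif, through which mTOR signalling and LARP1 set their translation together. Free ribosomal proteins made in excess are degraded, so the level of the message and the amount of protein in ribosomes need not move together.

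The first bases of these messages are shown because the TOP motif lies there. RefSeq start-site windows of assembly GRCm38.p6 were found for 24 of the 28 genes, and no window is shown for Rps14, Rps20, Rps27a and Rps29. A cytidine at the annotated start with at least 4 further C or T after it was present at an annotated start of 7 of the 24 genes (29.2%), against 813 of all 27025 genes in that table (3.01%). Each window below gives 10 bases before and 20 bases from the annotated start, with the pyrimidine run in capitals.
Fau, chr19:6057937-6057966, plus strand: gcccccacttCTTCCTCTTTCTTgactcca
Rps10, chr17:27635225-27635254, minus strand: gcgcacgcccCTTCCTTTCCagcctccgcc
Rps15a, chr7:118116128-118116157, minus strand: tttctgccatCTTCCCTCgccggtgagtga
Rps18, chr17:33955646-33955675, minus strand: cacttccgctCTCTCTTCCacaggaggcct
Rps21, chr2:180257369-180257398, plus strand: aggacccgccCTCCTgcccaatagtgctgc
Rps27, chr3:90213629-90213658, minus strand: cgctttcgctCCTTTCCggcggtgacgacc
Rps6, chr4:86857348-86857377, minus strand: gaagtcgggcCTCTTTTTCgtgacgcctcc
Rps15, chr10:80292421-80292450, plus strand: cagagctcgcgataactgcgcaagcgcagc
The run was longest in Fau, at 13 bases, and measured 10 in Rps10, 9 in Rps18 and Rps6, 8 in Rps15a, 7 in Rps27 and 5 in Rps21. The window of Rps15, the gene edited in 2 of the genotypes, is shown for contrast and held no such run at its annotated start. Transcripts can begin some bases away from an annotated start, so a window without the run says only that these letters are not at that position.

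Total counts were 13029061 to 38258534 per RNA library and 15598897 to 72044331 per footprint library. Levels are given as counts scaled to library size (CPM). RNA of the edited large-subunit genes was lower than in WT in each loss genotype: Rpl5 RNA was 1534 to 1588 CPM in Rpl5+/- against 2282 to 2338 in WT, Rpl11 RNA was 1008 to 1149 in Rpl11+/- against 1665 to 1686, and Rpl22 RNA was 664 to 712 in Rpl22+/- and 508 to 727 in Rpl22-/- against 933 to 967. The ranges of Rpl22+/- and Rpl22-/- overlapped, so Rpl22 RNA did not separate these labels. A point mutation such as Rpl10 R98S cannot be read from a gene count. Rpl10 RNA was 1764 to 1884 CPM in Rpl10 R98S against 1883 to 1981.5 in WT. Of 14 pro-B and cytokine receptor markers 5 reached 1 CPM in WT RNA, among them Ptprc, Csf2rb and Il3ra, while Il7r and Kit were at 0 in all 24 RNA libraries and Ebf1, Rag1 and Igll1 were at 0 in the 3 WT libraries. Markers of neutrophils and their precursors differed by genotype: 5 of 10 reached 1 CPM in WT with a sum of 44.8 to 198 CPM. It was 8 of 10 and 593 to 3590 CPM in Rps15 P131S and 8 of 10 and 647 to 4191 CPM in Rps15 H137Y. Rpl5+/- was also above WT (7 of 10, 206 to 508 CPM), Rpl10 R98S was below (4 of 10, 28.5 to 31.1 CPM), and the others overlapped WT. Summed mast cell and basophil markers were 15.9 to 46.3 CPM in WT and 98.7 to 278 in P131S. Rpl5+/-, Rpl11+/- and Rpl22+/- also lay above WT in these. Summed erythroid and megakaryocytic markers were 273 to 326 CPM in WT, 162 to 210.1 in P131S, 395 to 679 in H137Y and 392 to 415 in Rpl11+/-, with 4 of 6 genes at 1 CPM or more in each. The pro-B and cytokine receptor sum was 1144 to 1275 CPM in WT, 2491 to 3135 in P131S, 1615 to 2711 in H137Y and 1303 to 2226 in Rpl11+/-, with 5 of 14 genes at that level in each. That sum was also above WT in Rpl5+/- (1548 to 1580 CPM, 6 of 14 genes) and Rpl22+/- (1456 to 1736 CPM, 5 of 14). In bulk libraries fewer cells of a type and less RNA per cell cannot be told apart. The part of these markers in the results below was not tested.

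Rps15 (ENSMUSG00000063457) encodes the head protein whose C-terminal tail reaches towards the decoding site, and it is the edited gene of 2 genotypes. Its RNA level was 1445, 1432 and 1454 CPM in WT clones 1, 2 and 3. It was 1935, 906 and 1825 CPM in P131S clones 20, 24 and 63, and 874, 817 and 1829 CPM in H137Y clones 2, 6 and 16. Clone 24 and clones 2 and 6 thus lay far below every WT clone, and the other 3 Rps15 clones lay above every WT clone. Footprints on Rps15 were 460.1, 396 and 595 CPM in WT, 693, 243 and 425 CPM in P131S and 258, 262 and 459 CPM in H137Y, in the same order of clones. The clones with low RNA were also the ones with the fewest footprints, and the ratio of footprint to RNA CPM ran from 0.233 to 0.358 over the 6 Rps15 clones against 0.276 to 0.409 in WT.

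Rps15 was called in neither genotype. In RNA the test gave changes of 0.11 and -0.30 on the log2 scale with SE 0.25 and 0.25 and adjusted p 0.754 and 0.359 for P131S and H137Y, by edgeR's quasi-likelihood test with Benjamini-Hochberg adjustment. In footprints it gave changes of -0.09 and -0.57 on the log2 scale with SE 0.29 and 0.29 and adjusted p 0.864 and 0.207, and for the ratio -0.22 and -0.29 on the log2 scale. The median RNA level over all 28 genes was above WT in each of the 6 clones. It stood 0.25 log2 units above the WT mean in clone 24, against 0.37 and 0.26 in P131S clones 20 and 63. In H137Y it stood 0.44 above in clone 2 and 0.33 in clone 16, and 0.16 in clone 6. Leaving out clone 63 or clone 20 turned the sign of the RNA value in P131S, to -0.023 and -0.086. In H137Y the RNA value was -0.77 with an adjusted p of 0.00466 without clone 16, and thus called, but -0.13 without clone 2 and -0.097 without clone 6. The RNA difference of P131S against H137Y was 0.41 with an adjusted p of 0.256 over all clones. It was called without H137Y clone 16 (0.88, adjusted p 0.00445) and without P131S clone 24 (0.68, adjusted p 0.0267).

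**Figure D1:**
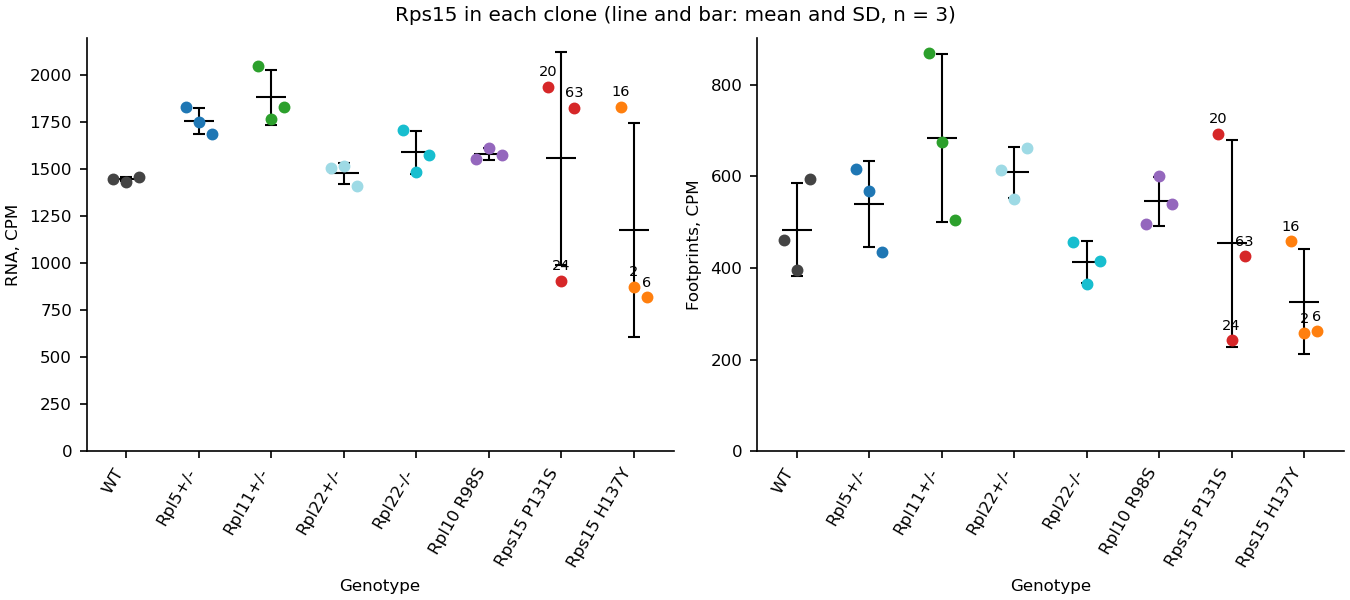
Rps15 in every clone of the 8 genotypes as RNA (left) and footprints (right), in CPM on linear axes from 0. Points are clones, with numbers given for the Rps15 genotypes, and the line and bar give mean and SD over 3 clones. P131S clone 24 and H137Y clones 2 and 6 lie below all WT clones in both panels.

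The first comparison asked whether loss or mutation of 1 ribosomal protein changed the RNA of the small-subunit genes. In 5 of the 7 mutant genotypes some of the 28 genes were called higher than in WT, and in none was any called lower. Rpl11+/- had 24 higher, Rps15 P131S 23, Rps15 H137Y 23, Rpl5+/- 11 and Rpl10 R98S 6, while Rpl22+/- and Rpl22-/- had 0. The shifts were small: the median fold over the 28 genes was 1.27 in Rpl11+/-, 1.24 in Rpl5+/-, 1.22 in each Rps15 genotype and 1.09 in Rpl10 R98S, while the median log2 change over all genes tested lay between -0.01 and 0.01. The 28 genes together made up 4.94% to 4.97% of the RNA counts in WT, 5.74% to 6.24% in Rpl11+/-, 5.68% to 5.98% in Rpl5+/-, 5.36% to 5.64% in P131S and 4.87% to 6.19% in H137Y.

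In Rpl11+/- most of the genes rose. The 24 genes called higher compare with 6.13% of all genes called higher in that comparison, and all 28 had every Rpl11+/- clone above every WT clone. The share of all genes with clones separated in this way was not computed, here or for the other genotypes. Rps12 (ENSMUSG00000061983), a head protein, was at 2052, 2059 and 2010.2 CPM in WT and 3395, 2757 and 2577 CPM in Rpl11+/- clones 22, 406 and 414 (change of 0.51 on the log2 scale with SE 0.09 and adjusted p 0.00171). Its highest clone, 22, stood apart from clones 406 and 414. Rpsa (ENSMUSG00000032518), which lies at the mRNA exit side, was at 4287, 4095 and 4001 CPM in WT and 6123, 5630.3 and 5472 CPM in Rpl11+/- (change of 0.48 on the log2 scale with SE 0.06 and adjusted p 0.000115). Its 3 mutant clones all lay far above the WT range. Rps24 rose by 0.43, Rps18 by 0.41, Rps7 by 0.40 and Rps27 by 0.50 on the log2 scale, with adjusted p of 0.00117, 0.0023, 0.000436 and 0.0489. Rps27 lost its call when any 1 clone except 414 was left out, with adjusted p of 0.0853 to 0.197, and also with no filter and by limma voom. Of the 12 head genes 9 were called and of the 16 others 15, with medians of 0.35 and 0.32. The 4 that missed the threshold, Rps15, Rps21, Rps28 and Rps29, had log2 changes of 0.38, 0.39, 0.44 and 0.36, and were named after their values were seen.

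In Rpl5+/- the sizes were alike and the calls fewer. The 11 genes called higher compare with 0.562% of all genes called higher. Again all 28 genes had each of the 3 mutant clones above each WT clone, without a count over all genes. Rps24, a protein of the subunit body, was at 2393, 2508 and 2564 CPM in WT and 3358, 3131 and 3221 CPM in Rpl5+/- clones 68, 76 and 80 (change of 0.38 on the log2 scale with SE 0.08 and adjusted p 0.0255). Rps7 was at 1577, 1537 and 1547 CPM in WT and 2044, 1994 and 1951 CPM in Rpl5+/- (change of 0.36 on the log2 scale with SE 0.06 and adjusted p 0.0188). Neither gene had a mutant clone near the WT range. Rpsa rose by 0.36, Rps27a, made as a fusion with ubiquitin, by 0.35, Rps14 by 0.34 and Rps18 by 0.34 on the log2 scale. The other 5 called were Rps23, Rps15a, Fau, Rps3a1 and Rps6. An unadjusted p under 0.05 was reached by 26 of the 28, beside 1861 of all 12814 genes tested. The count of 11 dropped to 3 without clone 76 and to 0 without any other clone of Rpl5+/- or WT. DESeq2 called 21 genes and limma voom 11, and the median change was 0.31.

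The Rps15 genotypes had similar median shifts, 0.29 in P131S and 0.28 in H137Y on the log2 scale, in a setting where many genes moved. The 23 genes called higher in P131S compare with 24% of all genes called higher, and the 23 in H137Y with 21.8%. Both comparisons share the 3 WT clones. Rps12 was at 3227, 2790.3 and 2779 CPM in P131S and 3194, 2415 and 2751 CPM in H137Y, against 2052, 2059 and 2010.2 in WT (changes of 0.52 and 0.45 on the log2 scale with SE 0.09 and 0.09 and adjusted p 0.000123 and 0.000626). Every mutant clone was above WT, and clones 20 and 2 were the highest. Rps20, a head protein, was at 1889, 1889 and 1887 CPM in WT, 2955, 2292 and 2521 CPM in P131S and 2896, 2247 and 2703 CPM in H137Y (changes of 0.46 and 0.47 on the log2 scale with SE 0.09 and 0.09 and adjusted p 0.000297 and 0.000257). Its WT clones lay within 3 CPM of each other, while the mutant clones spread from 2247 to 2955 CPM. Rps19, a gene often mutated in Diamond-Blackfan anaemia, was at 1366, 1353 and 1389 CPM in WT, 1960.1, 1759 and 1750.4 CPM in P131S and 2112, 1594 and 1839 CPM in H137Y (changes of 0.41 and 0.43 on the log2 scale with SE 0.08 and 0.08 and adjusted p 0.000207 and 0.000155).

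Among the body and platform genes Rpsa was at 5664, 5508 and 5511 CPM in P131S and 5780.1, 6134 and 5470.3 CPM in H137Y against 4287, 4095 and 4001 in WT (changes of 0.43 and 0.49 on the log2 scale with SE 0.06 and 0.06 and adjusted p 1.32e-05 and 3.65e-06). All 6 mutant clones lay above the WT range, with SDs of 89.1 CPM in P131S, 332 in H137Y and 145 in WT. In P131S Rps2, which lines the mRNA entry channel, rose by 0.45 and Rps9, also at the entry channel, by 0.36 on the log2 scale. In H137Y Rps10, a head protein, rose by 0.45 and Rps3a1, a platform protein, by 0.44. In each of the Rps15 genotypes 9 of 12 head genes and 14 of 16 others were called. The 5 genes not called were the same in both genotypes: Rps15, Rps21, Rps27, Rps28 and Rps29.

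Clone 6 of H137Y stood apart in the last 4 of these genes, which are described here after their values were seen. Rps29, a zinc-binding head protein, was at 1135, 1248 and 1224 CPM in WT and at 1665, 586 and 1313 CPM in H137Y clones 2, 6 and 16. Rps21 was at 829, 937 and 944 CPM in WT and 1167, 582 and 988 CPM in H137Y. Clone 6 was below all WT clones in both genes while clones 2 and 16 were above all of them. Rps28 and Rps27 in clone 6 were at 486 and 714 CPM, against 692 to 733 and 905 to 1057 CPM in WT. Footprints in clone 6 did not follow: on Rps29 they were 1043 CPM against 753 to 1074 in WT, and on Rps21 539.7 against 366 to 469. The footprint to RNA ratio of Rps29 was 1.78 in clone 6 and 0.604 to 0.877 in WT. In the same RNA library 11 of 47 large-subunit genes lay below the WT mean, with Rpl39 lowest at -0.47, against 0 of 47 in each of the other H137Y clones. Without clone 6, 27 of the 28 small-subunit genes were called higher in H137Y, and without clone 2, 17.

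**Figure D2:**
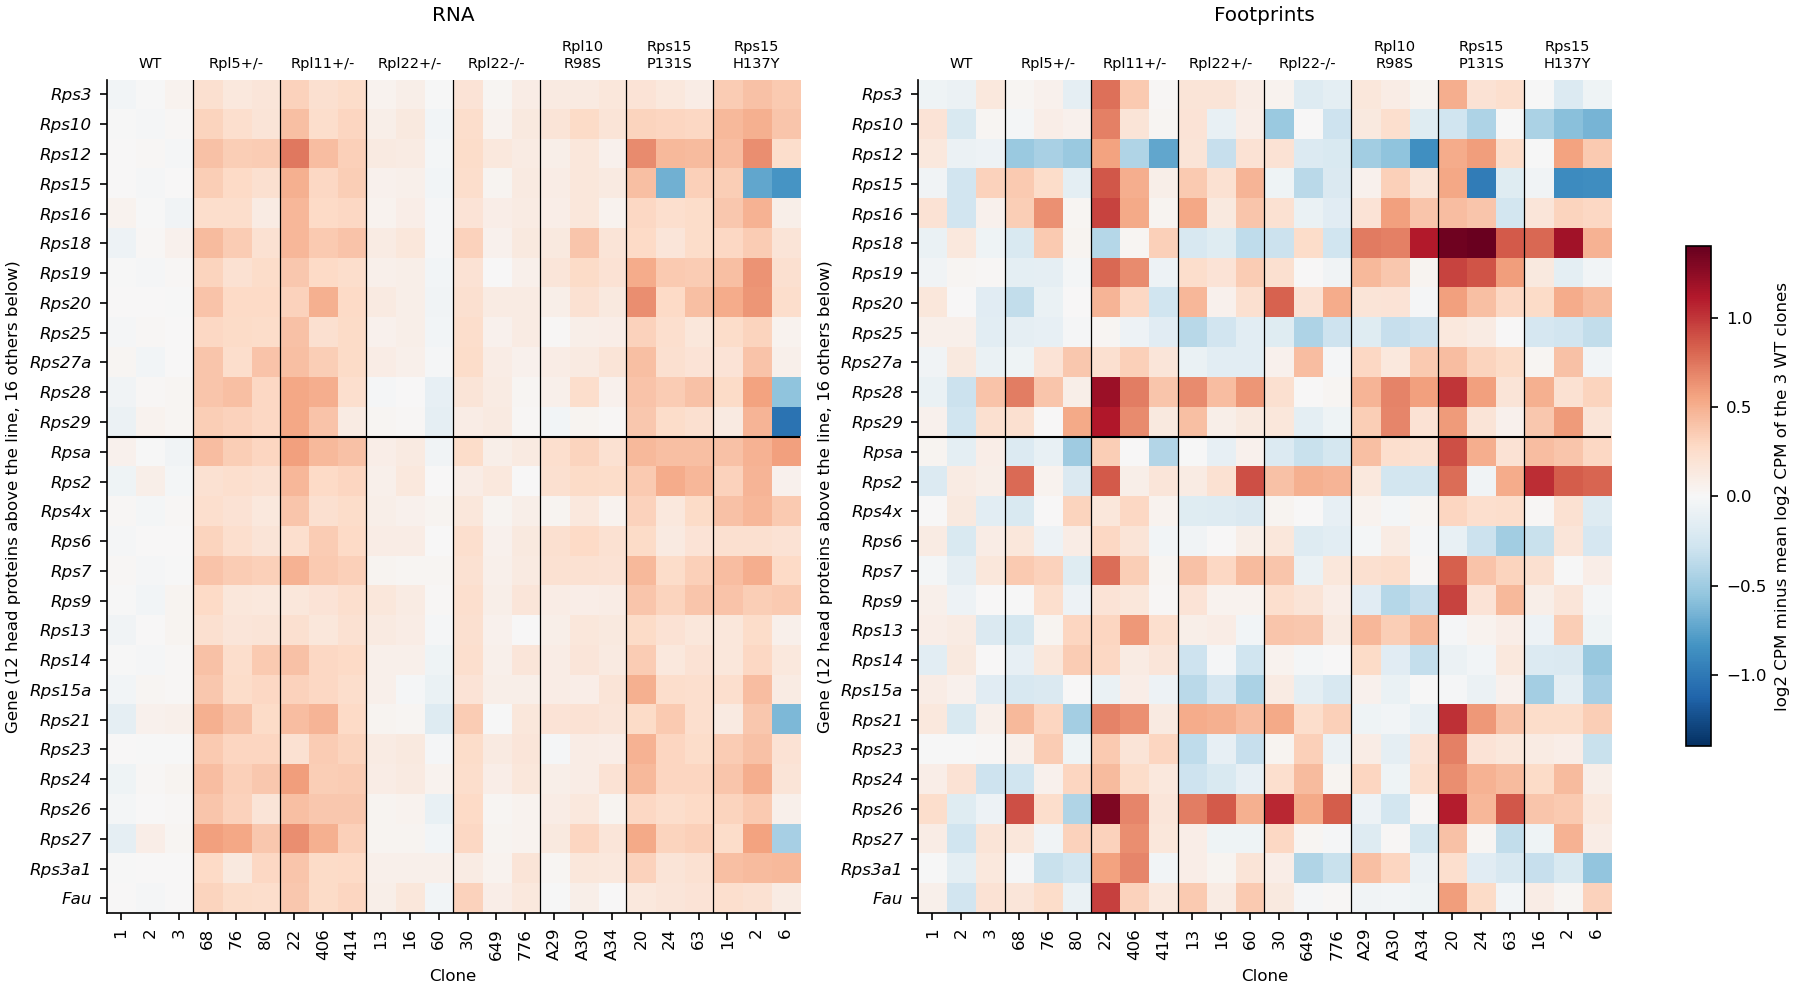
Each cell is 1 of the 28 genes (rows) in 1 of 24 clones (columns), coloured by log2 CPM minus the mean log2 CPM of the 3 WT clones, for RNA (left) and footprints (right). The RNA panel is mostly shaded above 0 in Rpl5+/-, Rpl11+/- and both Rps15 genotypes, apart from Rps15 in clones 24, 2 and 6 and Rps21, Rps27, Rps28 and Rps29 in clone 6.

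Rpl10 R98S showed a smaller rise. The 6 genes called higher compare with 7.17% of all genes called higher: Rpsa, Rps2, Rps18, Rps6, Rps10 and Rps7, with log2 changes of 0.25, 0.25, 0.24, 0.24, 0.21 and 0.21. Rps6, the body protein phosphorylated by S6 kinases, was at 2493, 2529 and 2520.3 CPM in WT and 2929, 3044 and 2917 CPM in the 3 Rpl10 R98S clones (change of 0.24 on the log2 scale with SE 0.06 and adjusted p 0.00738). All 28 fold changes were positive. In 25 genes the 3 mutant clones lay above WT, a count that was not made over all genes. Leaving out any 1 clone left 1 to 3 genes called, and Rps6 kept its call each time.

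For loss of Rpl22 no small-subunit gene was called in RNA by edgeR. In Rpl22+/- 4.32% of all genes were called in either direction. An unadjusted p under 0.05 was found for 0 of the 28, beside 2089 of all 12814 genes. The median log2 change over the 28 genes was 0.06. DESeq2 and limma voom also called 0. In Rpl22-/- 5.43% of all genes were called. There 11 of the 28 had an unadjusted p under 0.05, beside 2329 of all 12814 genes. The median was 0.14 and all 28 changes were positive. DESeq2 called 2, Rps9 and Fau, and limma voom 0.

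**Figure D3:**
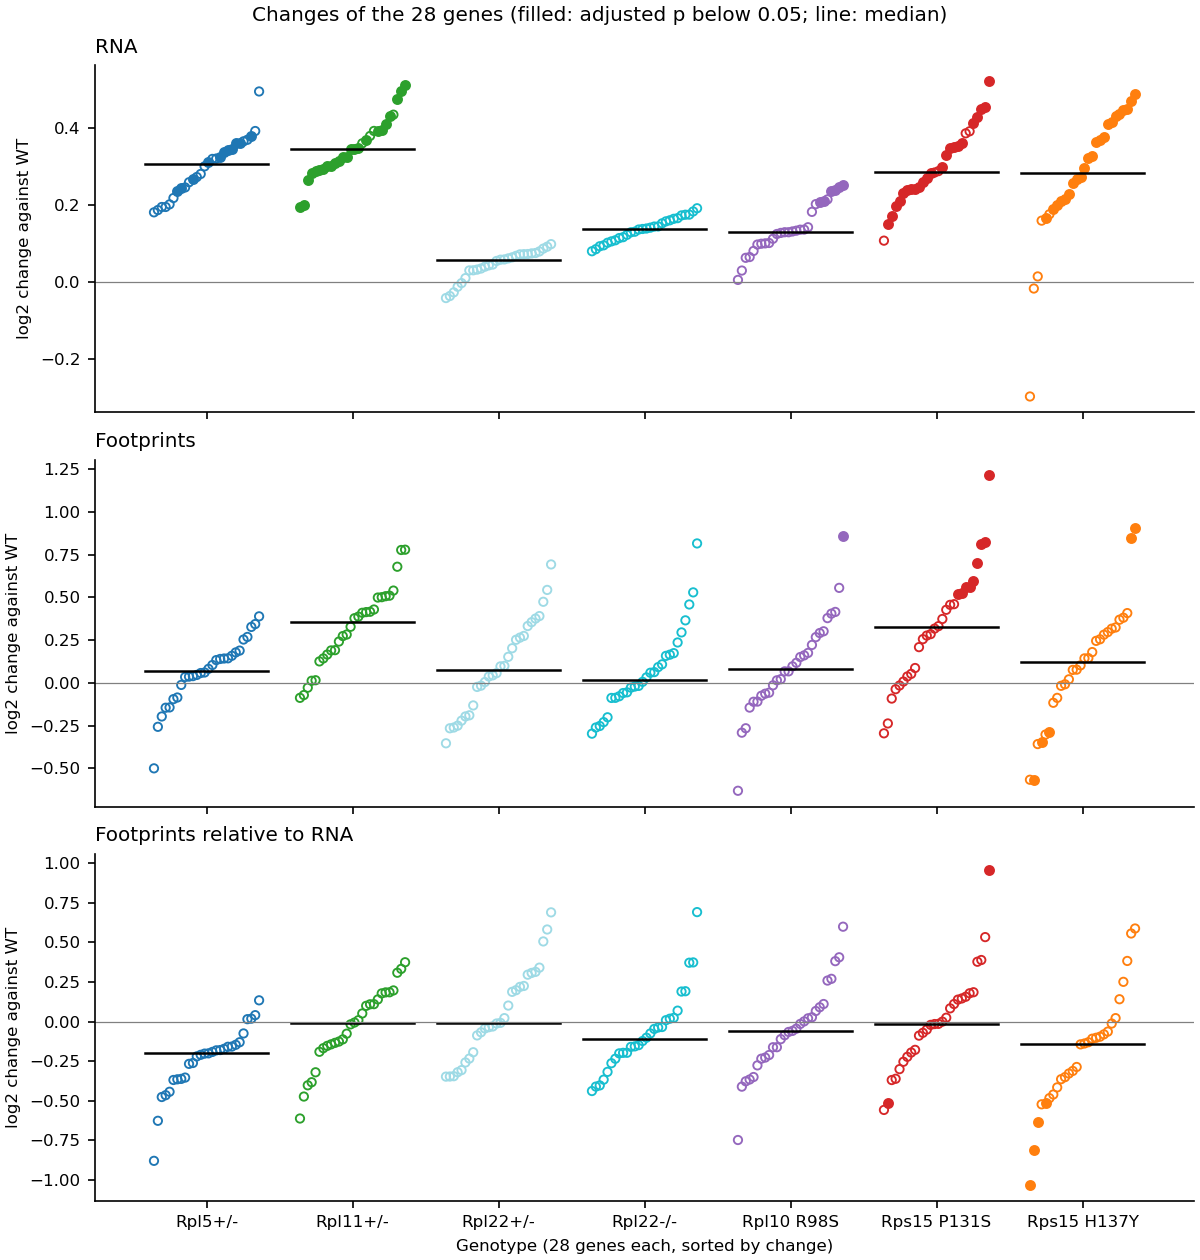
Log2 change against WT of each of the 28 genes in the 7 mutant genotypes, for RNA (top), footprints (middle) and footprints relative to RNA (bottom), with genes sorted by change within a genotype. Filled points passed an adjusted p of 0.05 and the line is the median, which in RNA is 0.35 in Rpl11+/-, 0.31 in Rpl5+/- and 0.06 in Rpl22+/-. The vertical scales differ between panels.

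Before footprints are read gene by gene, 1 property of these genes has to be set beside them: many have processed pseudogenes of nearly the same sequence. The table names 110 such pseudogenes for 19 of the 28 genes. Only those named by the symbol of the gene with -ps and a number were found this way. Pseudogenes under other names were neither counted nor added, so a low share covers the named ones only. In WT 96.8% of the footprints on Rps26 and its named pseudogene were assigned to the pseudogene, and the share was 91.5% for Rps2 and 83.1% for Rps18. Rps7, Rps16 and Rps13 followed with 34.2%, 23.8% and 14.2%. In RNA the share passed 10% for Rps2 (74.4%), Rps18 (40.0%), Rps26 (31.3%), Rps15a (17.6%) and Rps7 (16.4%). The WT mean of the other 21 genes was under 10% at both levels, with 1 WT clone of Rps10 at 13.8% in footprints. How the reads shared with a pseudogene were assigned is not given in the sources used here, and its part in a change of these genes was tested only by adding the counts of the named pseudogenes. In RNA, with those counts added, Rps2, Rps18 and Rps7 were at 0.47, 0.22 and 0.35 in P131S and at 0.32, 0.37 and 0.39 in Rpl11+/-, with adjusted p from 1.3e-06 to 0.0102. In H137Y they were at 0.41, 0.23 and 0.43, all called. In Rpl10 R98S they were at 0.27, 0.17 and 0.20, where Rps18 lost its call with an adjusted p of 0.0959. In Rpl5+/- they were at 0.18, 0.31 and 0.34, where Rps2 was called neither with the pseudogene counts nor without them.

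**Figure D4:**
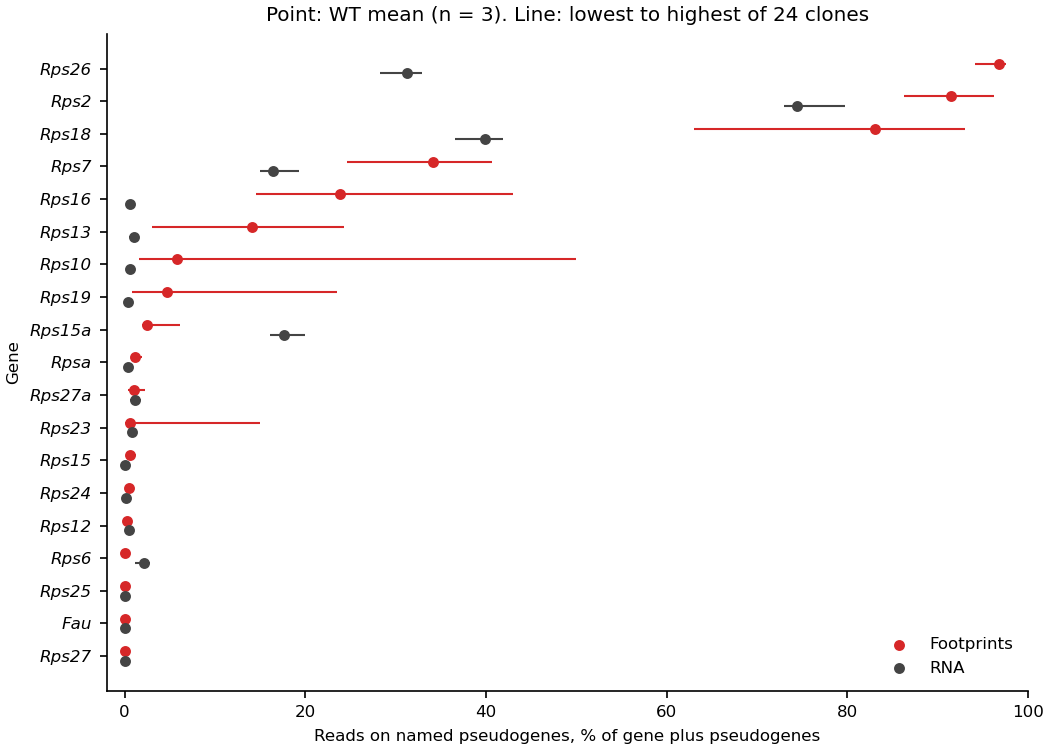
Share of counts that fell on named pseudogenes, in % of gene plus pseudogenes, for the 19 genes that have any, in footprints (red) and RNA (grey). Points are WT means over 3 clones and lines run from the lowest to the highest of 24 clones. Rps26, Rps2 and Rps18 have most of their footprints on pseudogenes, and Rps10 spans the widest range, 1.58% to 50.0%.

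This bears on the level of footprints per RNA in WT. The ratio of footprint CPM to RNA CPM was highest for Rps6, at 2.13 ± 0.27 (SD, n = 3), and lowest for Rps2, at 0.0123 ± 0.0011. With the pseudogene counts added the ratio of Rps6 was 2.09 ± 0.27 and that of Rps2 0.0378 ± 0.0067. Among the genes without a named pseudogene Rps20 had the lowest ratio, 0.184 ± 0.021. Coding lengths were not used here, so these ratios are not per length and their order is a description of this scale only.

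The second comparison asked whether footprints on the small-subunit genes changed. They rose on 9 genes in Rps15 P131S, on 2 in Rps15 H137Y and on 1 in Rpl10 R98S, and fell on 3 in H137Y. In P131S the 9 compare with 10% of all genes called higher. Rps19 (ENSMUSG00000040952) footprints were 158, 167 and 165 CPM in WT and 315, 301 and 245 CPM in P131S clones 20, 24 and 63 (change of 0.81 on the log2 scale with SE 0.16 and adjusted p 0.00116). The WT clones lay within 10 CPM of each other and all 3 mutant clones were well above. Its pseudogene share was 1.7%, 4.5% and 7.9% in WT and 7.85%, 11% and 5.89% in P131S, and with pseudogene counts added the rise was 0.87 with an adjusted p of 0.00116. Rps21 footprints were 469, 366 and 445 CPM in WT and 864, 647 and 566 CPM in P131S (change of 0.70 on the log2 scale with SE 0.19 and adjusted p 0.0108). Rps9 footprints were 843, 768 and 806 CPM in WT and 1549, 918 and 1102 CPM in P131S (change of 0.56 on the log2 scale with SE 0.14 and adjusted p 0.00515). In both genes clone 20 was the highest by a wide margin.

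Rps28, Rpsa and Rps24 also rose in P131S, by 0.59, 0.56 and 0.52 on the log2 scale. Rps28 lost its call in 4 of the 6 fits that each left out 1 clone and in 3 of 7 other alternatives. The remaining 3 were genes with many pseudogene counts. Rps18 (ENSMUSG00000008668) footprints were 169.7, 202 and 175 CPM in WT and 465, 472 and 329 CPM in P131S (change of 1.21 on the log2 scale with SE 0.21 and adjusted p 0.000335). The pseudogene share of Rps18 was 85.6%, 79.8% and 83.9% in WT and 69.7%, 67.4% and 69.4% in P131S. With pseudogene counts added, Rps18 was no longer called (log2 change then 0.32, adjusted p 0.212), and neither were Rps26 (0.83 before and 0.17 after, adjusted p 0.375) and Rps7 (0.53 and 0.41, adjusted p 0.0644). The count of 9 fell to 2 without clone 20 and to 5 without WT clone 2, and it was 7 or 9 without each of the others. With no filter on low counts it was 17.

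In H137Y the 2 genes called higher compare with 6.96% of all genes and the 3 called lower with 7.42%. Both that rose are genes with most of their footprints on pseudogenes. Rps18 was at 411, 255 and 316 CPM (change of 0.85 on the log2 scale with SE 0.20 and adjusted p 0.00785) and Rps2 at 24.4, 24 and 27.8 CPM against 11.9, 14.7 and 14.4 in WT (change of 0.90 on the log2 scale with SE 0.25 and adjusted p 0.0199). With pseudogene counts added they were not called, at 0.04 and 0.23, with adjusted p of 0.902 and 0.354. Of those that fell, Rps10 (ENSMUSG00000052146) had footprints of 1491, 1127 and 1326 CPM in WT and 873, 831 and 958 CPM in H137Y (change of -0.57 on the log2 scale with SE 0.16 and adjusted p 0.0241). Its pseudogene share was 2.08%, 13.8% and 1.69% in WT and 50.0%, 45.6% and 33.4% in H137Y clones 2, 6 and 16, and with those counts added the change turned to 0.17 with an adjusted p of 0.391. P131S clones had shares of 25.7%, 38.6% and 8.7%, the last of which lies within the WT range.

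The other 2 genes that fell in H137Y have few footprints on named pseudogenes. Rps25, a head protein needed by some viral internal ribosome entry sites, had footprints of 1327, 1319.6 and 1141 CPM in WT and 1046, 991 and 1072 CPM in H137Y (change of -0.28 on the log2 scale with SE 0.09 and adjusted p 0.0464). All 3 mutant clones were below all WT clones. Rps15a, a body protein, had footprints of 1523, 1474 and 1269 CPM in WT and 1303, 1028 and 1022 CPM in H137Y (change of -0.35 on the log2 scale with SE 0.11 and adjusted p 0.0439), where mutant clone 2 lay above WT clone 3. Over the 6 fits that each left out 1 clone, Rps25 lost its call in 5 and Rps15a in 4. The count of 5 dropped to 1 without WT clone 1, to 3 without WT clone 2 and to 2 without any 1 of the H137Y clones. With no filter it was 10.

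In Rpl10 R98S the only gene called was again Rps18, at 301, 296 and 392 CPM (change of 0.86 on the log2 scale with SE 0.20 and adjusted p 0.0281), beside 1.15% of all genes called higher. Its pseudogene share was 76.8%, 78.3% and 71.3%, and with those counts added the change was 0.30 with an adjusted p of 0.401. Leaving out any 1 clone ended the call. With pseudogene counts added Rps2 was called instead, at 0.65 with an adjusted p of 0.0269.

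No footprint change was called by edgeR in the 4 loss genotypes, where 0.216% of all genes were called in Rpl11+/-, 0.0247% in Rpl5+/-, 0.321% in Rpl22+/- and 0.191% in Rpl22-/-. An unadjusted p under 0.05 was reached by 12, 1, 6 and 4 of the 28 genes in these genotypes. Over all 16217 genes tested it was reached by 1965, 824, 2176 and 1367. DESeq2 called 1 gene in Rpl11+/-, Rps28, and 0 in the other 3, and limma voom called 0 in all 4. The median footprint change in Rpl11+/- was 0.35, beside an RNA median of 0.35, and 25 of 28 changes were positive. Its clones differed widely: the median over the 28 genes stood at 0.52, 0.31 and 0.07 above the WT mean in clones 22, 406 and 414. In Rpl5+/- the median footprint change was 0.07, beside an RNA median of 0.31. The footprint share of the 28 genes was 2.35% to 3.27% over all 24 clones.

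**Figure D5:**
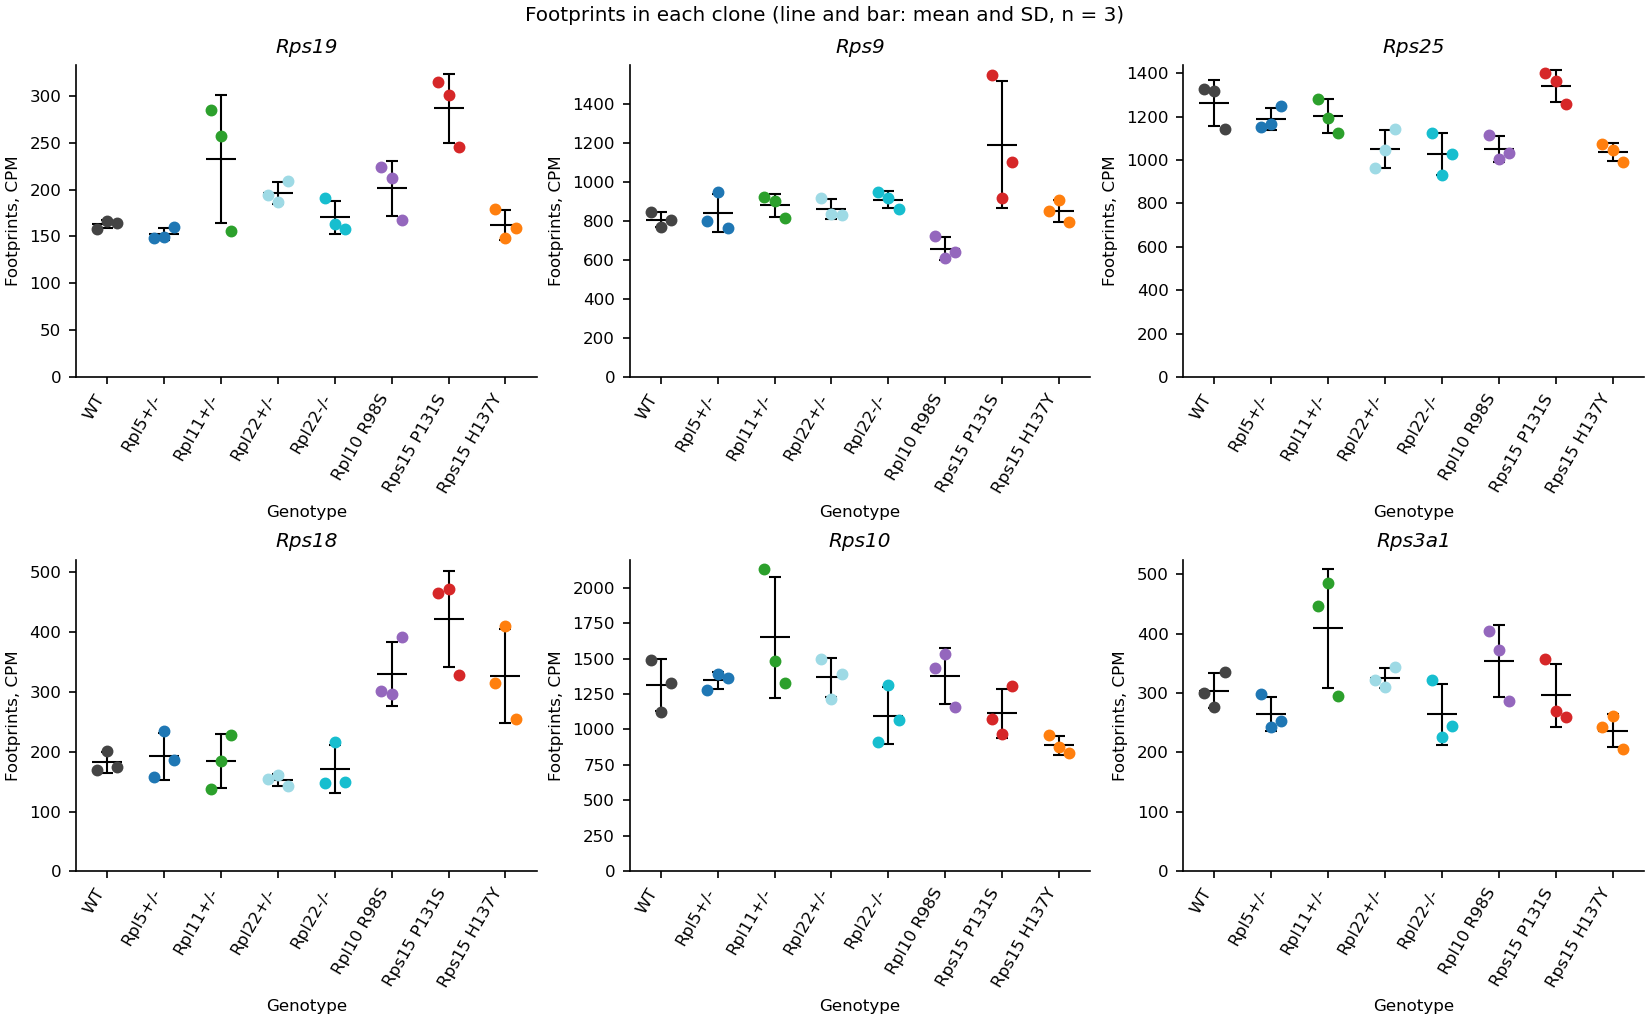
Footprints in CPM, on linear axes from 0, for 6 of the genes in every clone of the 8 genotypes, with mean and SD over 3 clones. Rps19 and Rps9 are high in P131S, Rps25 is lower in H137Y than in P131S, Rps18 is high in Rpl10 R98S and both Rps15 genotypes, and Rps10 is low in H137Y.

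The third comparison set footprints against RNA, which gives translational efficiency (TE), tested as the interaction of assay and genotype. In Rps15 H137Y TE fell on 4 genes, which compare with 2.22% of all genes called lower: Rps10, Rps3a1, Rps15a and Rps25. The footprint to RNA ratio of Rps3a1, which has no named pseudogene, was 0.405, 0.37 and 0.448 in WT and 0.258, 0.202 and 0.243 in H137Y (change of -0.81 on the log2 scale with SE 0.19 and adjusted p 0.00815). All 3 mutant clones were below all WT clones, with RNA up by 0.44 and footprints at -0.36 on the log2 scale. The ratio of Rps25 was 0.825, 0.803 and 0.696 in WT and 0.518, 0.587 and 0.549 in H137Y (change of -0.51 on the log2 scale with SE 0.11 and adjusted p 0.00702). The ratio of Rps15a was 1.45, 1.34 and 1.16 in WT and 0.892, 0.878 and 0.801 in H137Y (change of -0.63 on the log2 scale with SE 0.14 and adjusted p 0.00572). For both genes the clones of the 2 genotypes did not overlap. With pseudogene counts added, TE of Rps25 and Rps15a stayed called, at -0.52 and -0.66.

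Rps10 had the lowest value, with a ratio of 1.07, 0.815 and 0.942 in WT and 0.443, 0.456 and 0.502 in H137Y (change of -1.03 on the log2 scale with SE 0.18 and adjusted p 0.00063). With pseudogene counts added it was -0.30 with an adjusted p of 0.323. Over the 28 genes 22 TE changes were negative in H137Y and the median was -0.14, beside -0.02 over all genes tested. The count of 4 dropped to 1 without WT clone 1 and to 2 without WT clone 2. Over the 6 fits that each left out 1 clone, only Rps10 kept its call in all. Rps3a1 and Rps25 each lost their call in 3 of these fits and Rps15a in 2. With the clone as a replicate block the 4 kept their calls, and Rps3 and Rps14 were also called, at -0.48 and -0.52 with adjusted p of 0.0182 and 0.0381.

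In Rps15 P131S 1 gene rose and 1 fell in TE, beside 3.33% of all genes called in either direction. Rps6, which has few counts on named pseudogenes, had a ratio of 2.31, 1.82 and 2.27 in WT and 1.64, 1.58 and 1.32 in P131S (change of -0.51 on the log2 scale with SE 0.15 and adjusted p 0.0386). The P131S clones all lay below the WT clones, and leaving out any single clone ended the call, with adjusted p of 0.0652 to 0.285. Rps18 had a ratio of 0.114, 0.127 and 0.107 in WT and 0.245, 0.268 and 0.176 in P131S (change of 0.96 on the log2 scale with SE 0.23 and adjusted p 0.0118), and with pseudogene counts added its change was 0.06 with an adjusted p of 1. Without clone 20, clone 24 or WT clone 3, 0 of the 2 were called. With the clone as a replicate block Rps10 was called as well, at -0.56 with an adjusted p of 0.0392.

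In the other 5 genotypes edgeR called no TE change among the 28 genes. The share of all genes called in either direction was 0.254% in Rpl10 R98S, 0% in Rpl11+/-, 0% in Rpl5+/-, 0.00604% in Rpl22+/- and 0.0181% in Rpl22-/-. An unadjusted p under 0.05 was reached by 4, 4, 7, 6 and 4 of the 28. Over all 16568 genes tested it was reached by 1151, 570, 301, 1102 and 716. DESeq2 called 1 gene in Rpl22-/-, Rps25 at -0.44, and 0 in the others, and limma voom called 0. With the clone as a replicate block Rps12 was called in Rpl10 R98S, at -0.75 with an adjusted p of 0.0496. In Rpl5+/- 24 of 28 changes were negative with a median of -0.20, and 8 genes had all 3 mutant clones below WT. No count of genes separated in this way was made over all genes tested.

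A direct test of the 2 Rps15 mutations asked where they differ. In RNA 3 of the 28 genes were lower in P131S than in H137Y, a smaller share than the 13.3% of all genes called lower. Rps3, a head protein at the mRNA entry, was at 2890.2, 2796 and 2719.6 CPM in P131S and 3357, 3254 and 3229.6 CPM in H137Y (change of -0.23 on the log2 scale with SE 0.05 and adjusted p 0.00224). Rps3a1 was at 932, 848 and 864 CPM and 1012, 1018 and 997 CPM (change of -0.20 on the log2 scale with SE 0.06 and adjusted p 0.014). Rps4x, a body protein encoded on the X chromosome, was at 3011, 2677 and 2904 CPM and 3332, 3114 and 3208 CPM (change of -0.17 on the log2 scale with SE 0.06 and adjusted p 0.0317). All 3 genes were above WT in every clone of both mutants, and the 2 mutant ranges did not overlap. Rps3 kept its call whichever clone was left out. Rps3a1 lost it without P131S clone 24 (adjusted p 0.0581), and Rps4x without P131S clone 24 or 63 or H137Y clone 2 or 16 (adjusted p 0.0523 to 0.154). The count became 7 without H137Y clone 2 and 5 without clone 6, and 0 when the spread came from these 2 genotypes alone.

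In footprints 3 genes were higher in P131S than in H137Y, beside 2.63% of all genes. Rps19 was at 315, 301 and 245 CPM in P131S and 148, 159 and 179.6 CPM in H137Y (change of 0.82 on the log2 scale with SE 0.16 and adjusted p 0.00407). The H137Y clones lay around the WT level, with a log2 change of -0.01 against WT. Its pseudogene share in H137Y was 14.3%, 23.5% and 15.1%, and with pseudogene counts added the difference was 0.67 with an adjusted p of 0.0259. Rps9 was at 1549, 918 and 1102 CPM and 904, 792 and 850.3 CPM (change of 0.49 on the log2 scale with SE 0.14 and adjusted p 0.0384). Rps25 was at 1399, 1363 and 1260.2 CPM and 1046, 991 and 1072 CPM (change of 0.37 on the log2 scale with SE 0.09 and adjusted p 0.024). The count dropped to 1 without P131S clone 20 or H137Y clone 6. Over the 6 fits that each left out 1 clone, Rps19 kept its call in all. Rps9 lost its call in 4 of these fits and Rps25 in 3.

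In TE 2 genes were higher in P131S, beside 0.398% of all genes. The ratio of Rps19 was 0.161, 0.171 and 0.14 in P131S and 0.0703, 0.0997 and 0.0977 in H137Y (change of 0.84 on the log2 scale with SE 0.18 and adjusted p 0.0207), and that of Rps3 was 0.415, 0.345 and 0.363 and 0.22, 0.247 and 0.259 (change of 0.63 on the log2 scale with SE 0.14 and adjusted p 0.0288). WT lay between the mutants for Rps19, at 0.116, 0.123 and 0.119, and with pseudogene counts added its difference was 0.68 with an adjusted p of 0.106. Over the 28 genes 23 of the differences were positive with a median of 0.26. The count over the 28 genes was 0 without P131S clone 20 or H137Y clone 2, and 1 without clone 63 or clone 6. Over the 6 fits that each left out 1 clone, Rps19 lost its call in 3 and Rps3 in 4.

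Other gene lists moved as follows in the same fits, given by counts alone. Of the 47 large-subunit genes 41 were called higher in RNA in P131S, 35 in H137Y, 38 in Rpl11+/-, 19 in Rpl5+/- and 22 in Rpl10 R98S, with medians of 0.29, 0.27, 0.32, 0.27 and 0.18 beside 0.29, 0.28, 0.35, 0.31 and 0.13 for the 28 small-subunit genes. Of the 6 tested genes of the remaining small-subunit list 6, 5, 5, 3 and 2 were called higher in the same genotypes. Of 18 other messages with a known TOP motif, such as those of translation factors, 10 were called higher and 2 lower in P131S, 10 and 1 in H137Y, 8 and 0 in Rpl11+/-, 2 and 0 in Rpl5+/- and 1 and 0 in Rpl10 R98S. Of 29 assembly factors of the small subunit 22 were called higher in RNA in P131S, with a median of 0.39, and 14 were called higher and 1 lower in H137Y, with a median of 0.25. In Rpl10 R98S 8 were called higher and 1 lower, with a median of 0.23. In Rpl11+/- 5 and in Rpl5+/- 0 of them were called higher, with medians of 0.20 and 0.10. In footprints 17 of the 29 were called higher in P131S and 10 in H137Y, beside 9 and 2 of the 28 ribosomal protein genes.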

How the data were processed

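Estimated counts per Ensembl gene were deposited by the authors in 1 table for all 48 libraries. The submitters' processing notes name STAR 2.6.1d, Salmon 1.4.0, DESeq2 1.30 and GRCm38 without saying which step made the table, and 92.2% of its values are whole to within 1e-09. The feature counted and how a read that fits several genes was assigned are not given in the sources used here. All 48 columns matched a library by name.

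Counts were rounded and tested with edgeR 4.0.16 in R 4.3.3 (quasi-likelihood, robust dispersions, TMM scaling, filterByExpr with a minimum of 10 counts and a total of 15), with the 24 libraries of an assay in 1 fit, or 48 libraries and 16 groups for TE. Two-sided p-values were corrected after Benjamini and Hochberg over all genes tested, with a threshold of 0.05 and 8 comparisons at each of 3 levels. The SE is the absolute log2 change divided by the square root of F. CPM are on TMM-scaled totals. The kept genes held at least 99.95% of the counts of every library. With 3 clones against 3, an exact test of 1 gene cannot go below 0.1. Simulated counts for P131S against WT used the same spread for every gene, with changes placed only in genes with many counts. Only these 2 genotypes were fitted. Of 100 genes changed 1.5-fold, 93% were recovered in RNA (11924 genes tested), 89% in footprints (14364) and 38% for TE (14900). Of 100 changed 2-fold, 100%, 100% and 98% were recovered. Recovery at the spread seen between the clones here was not tested. SDs are over the 3 clones of a genotype, while SE and p-values rest on a spread estimated over all genotypes in the fit.

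RNA and footprint libraries of equal clone number are paired by the labels, which say that a lysate was divided. Deviations from the genotype mean over 12074 genes correlated at 0.172 to 0.581 within a clone and at -0.484 to -0.0134 between clones of a genotype, and no 2 libraries held identical values.

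Members and lists were chosen with earlier results of these data known. Named are Rps15 in comparisons of its mutants, the called genes (at most the 6 with the largest changes per direction and comparison), and the highest and lowest WT ratios; genes named because another tool or the block called them, or beside called ones, were chosen after their values were seen. Alternatives were DESeq2 1.42.0, limma 3.58.1 (voom), DESeq2 size factors, TMM without ribosomal protein genes, no filter, a fit of only the 2 genotypes compared, members summed with named pseudogenes, each clone left out, and the clone as a block. Start-site windows came from RefSeq, and levels per coding length were not computed.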

Additional observations from a re-analysis of the deposited data

Results flagged for a closer look

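The direct test of Rps15 P131S against Rps15 H137Y gave 8 values past the threshold for small-subunit genes by edgeR's quasi-likelihood test, and these are listed because the effects of 2 mutations of 1 gene differed in a test of the difference itself. In RNA they were Rps3 at -0.23, Rps3a1 at -0.20 and Rps4x at -0.17 on the log2 scale, all lower in P131S in 3 of 3 clones against 3 of 3. These 3 of 28 genes are a smaller share than the 13.3% of all genes called lower in that comparison. When only these 2 genotypes were fitted, 0 of the 28 were called. In footprints they were Rps19 at 0.82, Rps9 at 0.49 and Rps25 at 0.37, and in TE Rps19 at 0.84 and Rps3 at 0.63, all higher in P131S, beside 2.63% and 0.398% of all genes called higher. With only these 2 genotypes fitted, 1 footprint call and 0 TE calls were left. Rps3 thus differed in opposite directions in RNA and in TE, and its footprints were 1200.1, 964 and 986 CPM in P131S and 737, 804 and 838 CPM in H137Y.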

How the results depend on the processing

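Of 24 counts of called genes 5 stayed within 1.5 times their value under each alternative run: RNA in P131S, Rpl11+/- and Rpl22+/-, and TE in Rpl11+/- and Rpl22+/-. The cause of the other shifts was not tested, unless named. A fit of only the 2 genotypes compared, with fewer samples, gave 14 RNA calls in H137Y, 18 in Rpl10 R98S, 28 in Rpl5+/-, 1 in Rpl22-/- and 0 in P131S against H137Y. It gave 5, 3, 2 and 1 footprint calls in P131S, H137Y, Rpl10 R98S and P131S against H137Y, and 1, 2, 1, 1 and 0 TE calls in P131S, H137Y, Rpl10 R98S, Rpl5+/- and P131S against H137Y. Without the filter there were 7 RNA calls in Rpl5+/-, 1 TE call in P131S and 17, 10, 6, 1, 10, 6, 2 and 14 footprint calls in P131S, H137Y, Rpl10 R98S, Rpl5+/-, Rpl11+/-, Rpl22+/-, Rpl22-/- and P131S against H137Y. DESeq2 gave 21 RNA calls in Rpl5+/- and 2 in Rpl22-/-, 1 footprint call in Rpl11+/- and 1 TE call in Rpl22-/-. DESeq2 size factors gave 1 TE call in P131S and 3 footprint calls in H137Y, and TMM without ribosomal protein genes 1 TE call in P131S. Summing with pseudogenes gave 1 TE call in P131S, 2 footprint calls in H137Y and 1 TE call in P131S against H137Y.

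With the clone as a replicate block, the pairing by lysate gave 3 TE calls in P131S, 6 in H137Y, 1 in Rpl10 R98S and 2 in P131S against H137Y, and no call of the fit without it was lost. Leaving out 1 clone gave 1 to 3 RNA calls in Rpl10 R98S, 0 to 3 in Rpl5+/-, 0 to 1 in Rpl22-/-, 17 to 27 in H137Y and 2 to 7 in P131S against H137Y. It gave 2 to 9 footprint calls in P131S, 1 to 4 in H137Y, 0 in Rpl10 R98S, 0 to 4 in Rpl11+/- and 1 to 3 in P131S against H137Y, and 0 to 1, 1 to 4 and 0 to 2 TE calls in P131S, H137Y and P131S against H137Y.

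Of 56 called values named by the rule, 20 kept their call under every alternative and 1 changed sign: Rps10 footprints in H137Y, to 0.17 when summed with pseudogenes. Rps15, which was not called, changed sign in P131S when 1 clone was left out, with a range of -0.086 to 0.38 in RNA, -0.54 to 0.24 in footprints and -0.45 to 1.3e-05 in TE. Its TE difference between P131S and H137Y became -0.026 by limma voom and -0.030 with the replicate block, and ranged from -0.17 to 0.25 when 1 clone was left out. Footprints on Rps2 and Rps26 were few, at 11.9 to 14.7 and 55.7 to 74.4 CPM in WT, where 91.5% and 96.8% of the summed counts lay on pseudogenes.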
